A study of Homo sapiens with 6 samples.

Results

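The genes described here are 10 feedback inhibitors of the RAS to ERK signalling cascade: 4 dual-specificity phosphatases (DUSP1, DUSP4, DUSP5 and DUSP6), 3 Sprouty genes (SPRY1, SPRY2 and SPRY4) and 3 SPRED genes (SPRED1, SPRED2 and SPRED3). They were taken by gene name from a table of 58735 genes, and all 10 were found. The libraries are labelled as SW480, a cell line derived from a human colorectal adenocarcinoma, grown in L-15 medium with serum. By their labels, 3 libraries are from cells overexpressing DDX39B, an RNA helicase of the mRNA export machinery, and 3 are controls of wild-type genotype. No label says how the gene was overexpressed or whether the libraries came from separate cultures, so p-values measure the spread between libraries, which may be technical.

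Growth factor receptors signal through RAS, the RAF kinases and the MEK kinases to ERK, and active ERK switches on genes whose products then damp the same cascade. DUSP phosphatases remove the activating phosphates from ERK and related kinases, Sprouty proteins act near the receptors and RAF, and SPRED proteins recruit neurofibromin, which inactivates RAS. RNA levels of these inhibitors are widely read as a measure of ERK pathway activity in colorectal tumours.

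Facts of the libraries bear on every direction below. DDX39B measured 15.02, 13.87 and 14.03 FPKM in the libraries labelled overexpression and 39.3, 34.6 and 41.9 FPKM in those labelled control (log2 fold change -1.37, limma adjusted p = 6.93e-06), which goes against the labels. The libraries are named overexpression-labelled and control-labelled here, and every direction is drawn from those labels. FPKM is a read count scaled for gene length and library depth, and the reads worked out from it summed to 16963075 to 17463697 per library. Of 12 colon epithelial markers, 7 reached a mean of 1 FPKM, and the summed level of the 12 was 1972 to 1996 FPKM in overexpression-labelled and 358 to 430 FPKM in control-labelled libraries. EPCAM averaged 171 FPKM in overexpression-labelled and 2.72 FPKM in control-labelled libraries, and KRT19 500.2 FPKM in overexpression-labelled and 0.251 FPKM in control-labelled libraries. By means, 9 of the 12 were higher in overexpression-labelled libraries and 2 lower: KRT20, with 6 reads in overexpression-labelled and 80 in control-labelled libraries, and CEACAM5, with 1 in overexpression-labelled and 5 in control-labelled libraries. CDX1 had 0 reads in all 6 libraries and CDX2 had 0 in the control-labelled ones. Summed levels of 7 endothelial markers were 1.06 to 1.48 FPKM in overexpression-labelled and 36.2 to 50.7 FPKM in control-labelled libraries, there nearly all from ESAM. For 8 fibroblast markers they were 1.54 to 1.67 FPKM in overexpression-labelled and 4.34 to 8.22 FPKM in control-labelled libraries, and for 8 leukocyte markers 1.09 to 1.54 FPKM in overexpression-labelled and 0.740 to 1.23 FPKM in control-labelled libraries. The part of these marker differences in the results was not tested. In such bulk RNA, fewer cells of a type and less RNA per cell cannot be told apart. Whether both groups came from the same cells, and whether labels were exchanged, was not tested.

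Most of the feedback genes were higher in the overexpression-labelled libraries, but DUSP1 and DUSP4, phosphatases of the nucleus, were lower. With limma on log2(FPKM + 1), 9 of the 10 reached the mean of 1 FPKM needed for testing; 7 were higher and 2 lower at an adjusted p under 0.05. Over all 13972 tested genes the same rule called 76.8%, 37.5% higher and 39.3% lower, so passing the threshold was common here. The median log2 fold change was 0.82 over the 9 feedback genes and -0.03 over all tested genes. At a log2 fold change of at least 1, 4 were higher (15.8% of all tested genes) and 2 lower (15.4%). None of the 10 genes had overlapping groups of values, which also held for 80.1% of tested genes.

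**Figure D1:**
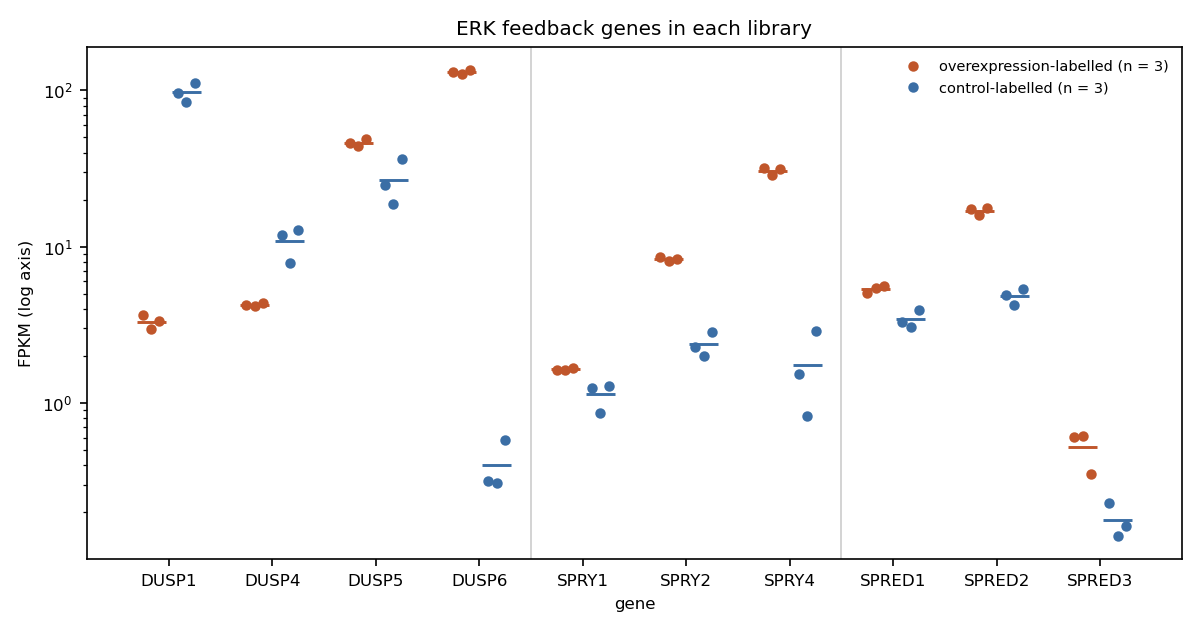
FPKM of each gene (log axis) in the 3 overexpression-labelled libraries (left of each pair) and the 3 control-labelled libraries (right), with points for libraries and lines for means. DUSP1 and DUSP4 are lower in the overexpression-labelled libraries and the other 8 are higher, with DUSP6 and DUSP1 far apart in opposite directions.

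The 2 genes that differed by the largest factors both encode phosphatases, in opposite directions. DUSP6, the cytoplasmic phosphatase that acts selectively on ERK (ENSG00000139318, chromosome 12, 89347232 to 89353271, minus strand, GRCh38), stood at 131.4, 126.6 and 134.4 FPKM in overexpression-labelled and 0.318, 0.307 and 0.581 FPKM in control-labelled libraries. It stood among the most abundant mRNAs in the overexpression-labelled group, above 99.0% of protein-coding genes, and was low in the control-labelled group, above 41.0% of protein-coding genes, with 24, 24 and 45 reads. DUSP6 averaged 130.8 ± 3.92 FPKM in overexpression-labelled and 0.402 ± 0.15 FPKM in control-labelled libraries (SD, n = 3 each) and so was 326-fold higher (limma log2 fold change 6.56, SE 0.086, adjusted p = 1.73e-08). Only 0.150% of tested genes changed by as much or more on this scale.

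DUSP1, an immediate early nuclear phosphatase that also acts on the stress kinases p38 and JNK, went the other way. DUSP1 (ENSG00000120129, chromosome 5, 172768090 to 172771195, minus strand) stood at 3.68, 2.96 and 3.33 FPKM in overexpression-labelled and 96.2, 84.7 and 111.4 FPKM in control-labelled libraries. Its means of 3.32 ± 0.36 and 97.4 ± 13.4 FPKM (SD, n = 3 each) made it 29.3-fold lower in the overexpression-labelled group (log2 fold change -4.50, SE 0.11, limma adjusted p = 1.67e-07). A change of that size or more was seen in 1.05% of tested genes.

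The promoter windows of these 2 genes are printed because they mark the ends of the family's range. They are RefSeq windows on GRCh38.p14 from 250 bases before to 50 after the RefSeq start, read on the minus strand. That of DUSP1 lies at chr5:172771146-172771445 and that of DUSP6 at chr12:89352452-89352751. The DUSP1 window covers the 5' end of the gene span given above. The DUSP6 window lies wholly inside the DUSP6 span, downstream of its 5' end, so the 2 windows are not placed alike. Capitals mark TGACG, the core of the cyclic AMP response element, and TATAAA in DUSP1, and CCAAT in DUSP6, on either strand.
DUSP1: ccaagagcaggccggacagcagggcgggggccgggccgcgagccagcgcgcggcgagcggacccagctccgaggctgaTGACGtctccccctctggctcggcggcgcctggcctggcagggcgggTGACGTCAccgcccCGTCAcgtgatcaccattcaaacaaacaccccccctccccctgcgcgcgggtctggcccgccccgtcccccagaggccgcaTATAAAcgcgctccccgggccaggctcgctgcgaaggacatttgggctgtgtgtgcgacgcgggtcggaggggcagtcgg
DUSP6: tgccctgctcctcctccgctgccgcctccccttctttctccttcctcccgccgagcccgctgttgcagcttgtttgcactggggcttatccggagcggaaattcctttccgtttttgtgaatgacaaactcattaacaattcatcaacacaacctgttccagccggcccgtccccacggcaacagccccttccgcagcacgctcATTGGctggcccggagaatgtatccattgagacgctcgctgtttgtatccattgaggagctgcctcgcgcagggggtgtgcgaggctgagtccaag
The DUSP1 window held TGACG 4 times, 2 of them overlapping as the palindrome TGACGTCA at -125 to -118 from the start, and TATAAA at -30 to -25. Of 35116 RefSeq promoter windows, 24.6% held TGACG, 1.85% TGACGTCA and 11.5% TATAAA. The DUSP6 window held CCAAT at -46 to -42 (34.6% of windows), and no match to TGACG, TGACGTCA or TATAAA.

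Windows were at hand for 8 of the 10 genes, 13 windows in all, and DUSP4 and DUSP5 had none. TGACG occurred in 1 window each of SPRY2, SPRY4 and SPRED2 as well, TATAAA in 1 window of SPRED2, CCAAT in 1 window each of SPRED2 and SPRED3, and GGGCGG, a GC box found in 45% of all windows, in 8 of the 13. TGANTCA, the AP-1 motif (7.71% of windows), was found in 1 window each of SPRED2 and SPRED3. CCGGAA, an ETS core (17.2%), was found in 1 window each of SPRY1 and SPRY2, and CTTTGA (12.9%) in 1 window of SPRY2. No window held a CArG box, which 1.29% of all windows did. GGGCGG was found 4 times in the DUSP1 window and not in that of DUSP6. These matches describe letters on either strand and say nothing of binding.

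The other nuclear phosphatases parted as well. DUSP5, an inducible nuclear phosphatase specific for ERK (ENSG00000138166, chromosome 10, 110497838 to 110511544, plus strand), was the second most abundant of the 10 in both groups. It measured 45.8, 43.8 and 48.9 FPKM in overexpression-labelled and 24.8, 18.9 and 36.3 FPKM in control-labelled libraries. The gap between the groups was smaller than the range among the control-labelled libraries, and the 1.73-fold higher mean passed the test (log2 fold change 0.82, SE 0.21, limma adjusted p = 0.0112). DUSP4, a nuclear phosphatase for ERK and JNK (ENSG00000120875, chromosome 8, 29333064 to 29350668, minus strand), stood at 4.25, 4.16 and 4.37 FPKM in overexpression-labelled and 11.9, 7.87 and 12.9 FPKM in control-labelled libraries. It was 2.55-fold lower in the overexpression-labelled group (log2 fold change -1.15, SE 0.16, limma adjusted p = 6.29e-04).

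Because a high DUSP6 stood against a high DUSP1, the summed level of the 4 phosphatases differed far less than its makeup. The sum was 185 ± 6.75 FPKM in overexpression-labelled and 135 ± 24.8 FPKM in control-labelled libraries (SD, n = 3 each), 1.36-fold. DUSP6 made up 70.9% ± 0.49 of the sum in overexpression-labelled and 0.291% ± 0.062 in control-labelled libraries. DUSP1 made up 1.80% ± 0.17 of it in overexpression-labelled and 72.4% ± 3.34 in control-labelled libraries. The share of DUSP5 was 25.0% ± 0.52 in overexpression-labelled and 19.3% ± 2.90 in control-labelled libraries, and that of DUSP4 2.31% ± 0.028 in overexpression-labelled and 7.97% ± 0.93 in control-labelled libraries. The most abundant phosphatase mRNA of this set was thus DUSP6 in the 3 overexpression-labelled libraries and DUSP1 in the 3 control-labelled ones.

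**Figure D2:**
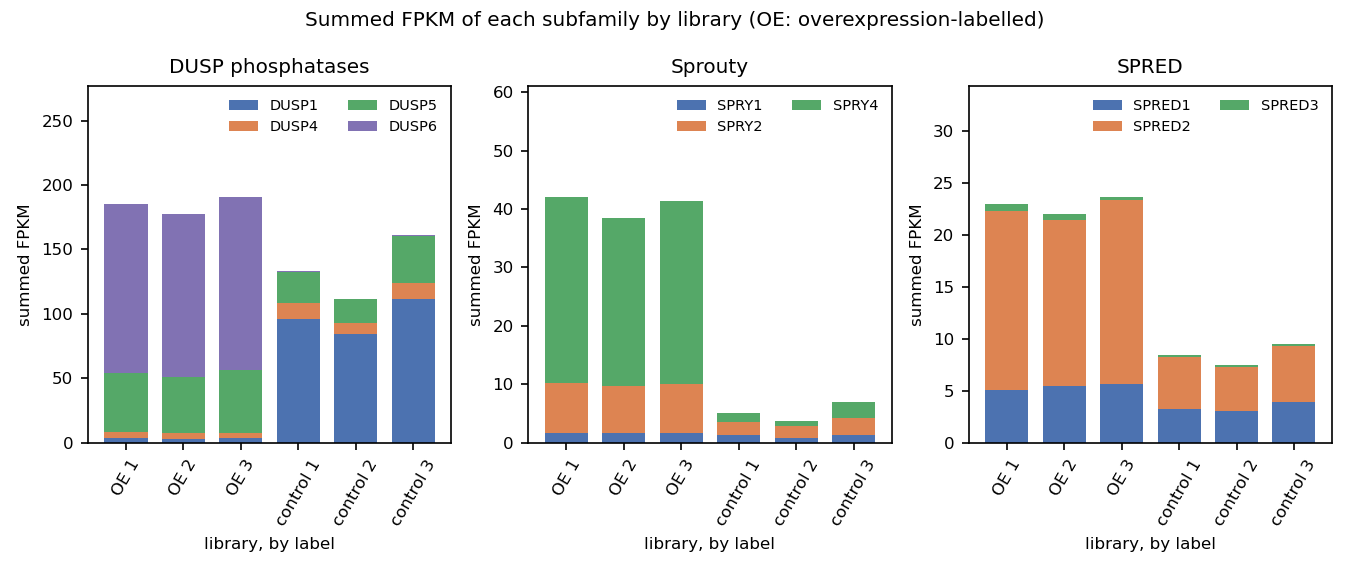
Stacked bars of FPKM (from 0) for the DUSP, Sprouty and SPRED genes in each library, OE being overexpression-labelled. The DUSP sum lies between 177.5 and 191 FPKM in overexpression-labelled and 112 and 161 FPKM in control-labelled libraries, with DUSP6 filling most of the overexpression-labelled bars and DUSP1 most of the control bars.

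All 3 Sprouty genes were higher in the overexpression-labelled libraries, by unequal amounts. SPRY4 (ENSG00000187678, chromosome 5, 142310427 to 142326455, minus strand) encodes a Sprouty that restrains growth factor signalling to ERK. It measured 31.9, 28.8 and 31.3 FPKM in overexpression-labelled and 1.52, 0.830 and 2.89 FPKM in control-labelled libraries, 17.6-fold higher by the means (log2 fold change 3.60, SE 0.25, limma adjusted p = 1.80e-05). The control-labelled libraries were all low and spread more than 3-fold among themselves (a highest-to-lowest ratio of 3.48), and no value came near those of the other group.

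SPRY2, the Sprouty that binds the ubiquitin ligase CBL to prolong receptor signalling in some settings (ENSG00000136158, chromosome 13, 80335976 to 80340951, minus strand), stood at 8.61, 8.07 and 8.37 FPKM in overexpression-labelled and 2.28, 1.99 and 2.85 FPKM in control-labelled libraries. It was 3.52-fold higher (log2 fold change 1.48, SE 0.10, limma adjusted p = 1.49e-05). SPRY1, a close relative with a role in growth factor signalling of the developing kidney (ENSG00000164056, chromosome 4, 123396795 to 123403760, plus strand), was low throughout, at 1.62, 1.63 and 1.67 FPKM in overexpression-labelled and 1.25, 0.867 and 1.28 FPKM in control-labelled libraries. The groups did not overlap, and the 1.45-fold higher mean passed narrowly (log2 fold change 0.31, SE 0.099, limma adjusted p = 0.0248). SPRY1 no longer passed when any of the 3 overexpression-labelled libraries was left out (adjusted p = 0.0601 to 0.0684), after quantile normalization (0.14, adjusted p = 0.259) and with no filter (adjusted p = 0.0564). Over 17 alternatives its limma adjusted p ranged from 0.00213 to 0.259, the lowest with array weights, whose estimate did not converge.

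Summed, the 3 Sprouty genes reached 40.7 ± 1.89 FPKM in overexpression-labelled and 5.26 ± 1.67 FPKM in control-labelled libraries (SD, n = 3 each), 7.74-fold apart. SPRY4 was 75.4% ± 0.54 of the sum in overexpression-labelled libraries and 31.2% ± 9.34 in control-labelled libraries. SPRY2 was 20.5% ± 0.37 in overexpression-labelled libraries and, at 46.6% ± 6.78, the largest share in control-labelled ones. The family member outside the set, SPRY3, had 137 reads in overexpression-labelled and 56 in control-labelled libraries and was too low to be tested.

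The SPRED genes, which carry an EVH1 domain and a Sprouty-like cysteine-rich domain, were also higher in the overexpression-labelled libraries, most of all SPRED2. SPRED2 (ENSG00000198369, chromosome 2, 65310851 to 65432637, minus strand) stood at 17.3, 16.0 and 17.7 FPKM in overexpression-labelled and 4.92, 4.23 and 5.37 FPKM in control-labelled libraries. SPRED2 was 3.51-fold higher (log2 fold change 1.63, SE 0.086, limma adjusted p = 4.61e-06), close to that of SPRY2 in size. SPRED1, the member mutated in Legius syndrome (ENSG00000166068, chromosome 15, 38252326 to 38357249, plus strand), measured 5.04, 5.42 and 5.62 FPKM in overexpression-labelled and 3.28, 3.06 and 3.94 FPKM in control-labelled libraries. It was 1.57-fold higher (log2 fold change 0.53, SE 0.090, limma adjusted p = 1.50e-03).

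SPRED3, the third member of the family (ENSG00000188766, chromosome 19, 38388421 to 38399587, plus strand), did not reach the level needed for the fit. It measured 0.609, 0.614 and 0.353 FPKM in overexpression-labelled libraries, from 63, 65 and 37 reads, and 0.230, 0.141 and 0.163 FPKM in control-labelled libraries, from 22, 14 and 16 reads. The groups did not overlap, and an exact two-sided permutation test over the 6 libraries gave p = 0.1, the smallest p that 3 against 3 allows. With no filter on low values its log2 fold change was 0.37 (limma adjusted p = 0.018), and rescaled to TPM, where it passed the filter, 0.78 (adjusted p = 0.0113). The SPRED sum was 22.9 ± 0.82 FPKM in overexpression-labelled and 8.44 ± 1.02 FPKM in control-labelled libraries (SD, n = 3 each), 2.71-fold apart. SPRED2 was 74.2% ± 1.45 of it in overexpression-labelled and 57.3% ± 0.87 in control-labelled libraries.

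FPKM allows levels to be ordered between genes, as it is scaled by length. In overexpression-labelled libraries the order of mean FPKM ran DUSP6, DUSP5, SPRY4, SPRED2, SPRY2, SPRED1, DUSP4, DUSP1, SPRY1 and SPRED3, from 130.8 down to 0.525 FPKM, and no neighbours overlapped in their library ranges. In control-labelled libraries it ran DUSP1, DUSP5, DUSP4, SPRED2, SPRED1, SPRY2, SPRY4, SPRY1, DUSP6 and SPRED3, from 97.4 down to 0.178 FPKM. There the ranges of SPRY2 and SPRY4, and of SPRY4 and SPRY1, overlapped, so the places of these 3 are not settled. SPRED2 held the fourth place and SPRED3 the last in both orders, while DUSP6 was first in overexpression-labelled and ninth in control-labelled libraries, and DUSP1 eighth in overexpression-labelled and first in control-labelled libraries.

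Genes whose annotated spans overlap these genes could share their reads, as no source used here states the strand used in counting, and their parts cannot be told apart. The antisense gene AC024909.2 at DUSP6 had 261 reads in overexpression-labelled and 1 in control-labelled libraries, while DUSP6 itself had 32455 in overexpression-labelled and 93 in control-labelled libraries. On the strand opposite SPRY4, the antisense SPRY4-AS1 had 193 reads in overexpression-labelled and 1 in control-labelled libraries, and the short RNA genes RF02038 and RF02039 had 85 and 58 reads in overexpression-labelled and 0 and 3 in control-labelled libraries. SPRY4 had 10780 reads in overexpression-labelled and 572 in control-labelled libraries. The antisense AC022217.3 at DUSP1 had 4 reads in overexpression-labelled and 6 in control-labelled libraries, and AC012370.1, in an intron of SPRED2, 3 in overexpression-labelled and 0 in control-labelled libraries. The overlapping genes thus held far fewer reads than the genes they overlap, in both groups. By FPKM, which is scaled for length, the gap was smaller for RF02038. It stood at 17.45, 17.64 and 17.22 FPKM in overexpression-labelled libraries, where SPRY4 stood at 31.9, 28.8 and 31.3 FPKM.

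The 10 genes varied together among the control-labelled libraries, a pattern picked out after the values were seen. By deposited FPKM, control library 2 was lowest of the 3 in 10 of the 10 genes, and control library 3 was highest in 9, SPRED3 being the exception. Over all tested genes control library 2 was lowest in 42.0% and control library 3 highest in 39.3%, and both held in 29.8%, against 9 of the 10. With FPKM rescaled to each library's total reads, the counts for the 10 genes stayed 10 and 9, and the shares of all tested genes were 34.4% and 36.4%. Control library 3 exceeded control library 2 by a factor of 3.48 for SPRY4, 1.93 for DUSP5, 1.89 for DUSP6 (45 against 24 reads) and 1.63 for DUSP4, with a median of 1.46 over the 10 genes and 1.01 over all tested genes. For DUSP6, control libraries 1 and 2 had 24 reads each, so their order rests on scaling alone.

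By deposited FPKM, the same order was seen in 13 of 20 ERK output genes, the transcriptional targets of the pathway listed below. It was also seen in 7 of 17 tested genes of the cascade itself and in 29.8% of all tested genes. With FPKM rescaled to each library's total reads, it held in 13 output genes, 6 cascade genes and 25.5% of all tested genes. The direction of this order was the same for DUSP1 and DUSP4 as for the other feedback genes, although these 2 went the other way between the groups. In overexpression-labelled libraries the 10 genes varied by a coefficient of variation of 1.54% to 28.4%, and in control-labelled libraries by 11.8% to 59.9%, larger in 9 of the 10. Over all tested genes the SD of log2 values was larger in control-labelled libraries for 76.0%.

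**Figure D3:**
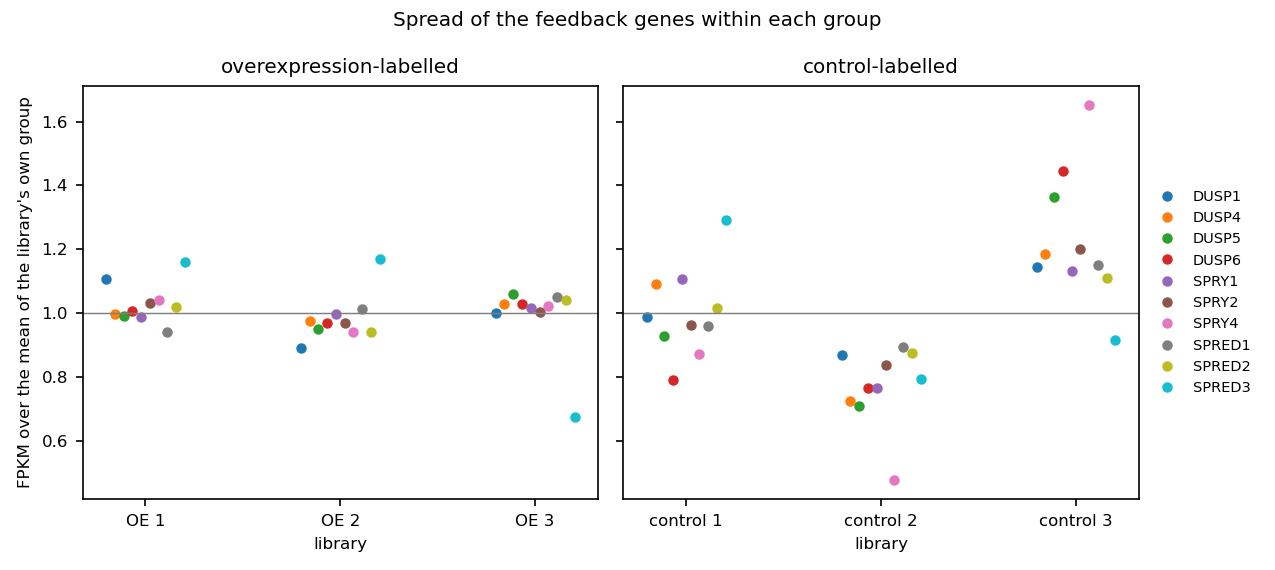
FPKM of each gene divided by the mean of its own group, in the 3 overexpression-labelled (left) and 3 control-labelled libraries (right), points being genes. In control library 2 all 10 points lie under 1, and in control library 3 all but SPRED3 lie above it, whereas in the overexpression-labelled libraries most lie close to 1.

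The MAP kinase phosphatases outside the set were lower in the overexpression-labelled libraries. All 6 tested members passed as lower and 0 as higher (median log2 fold change -1.52, against -0.03 over all tested genes, of which 39.3% were lower). DUSP9 was 5.71-fold lower (1.27 ± 0.093 FPKM in overexpression-labelled and 7.25 ± 2.21 FPKM in control-labelled libraries, adjusted p = 1.50e-04) and DUSP10, which prefers p38 and JNK, 7.70-fold (0.590 ± 0.16 FPKM in overexpression-labelled and 4.54 ± 1.37 FPKM in control-labelled libraries, adjusted p = 1.13e-04). DUSP16, a JNK phosphatase, was 3.36-fold lower, DUSP2 3.16-fold and DUSP8 3.91-fold. DUSP7, a relative of DUSP6 in the cytoplasm, measured 4.83 ± 0.019 FPKM in overexpression-labelled and 5.49 ± 0.29 FPKM in control-labelled libraries (log2 fold change -0.15, adjusted p = 0.0474), a call lost under 10 of 18 alternatives, at up to an adjusted p of 0.351. Within this class DUSP5 and DUSP6 were the members that were higher, and 8 were lower.

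Of 13 other inhibitors of the pathway that were tested, 4 were higher and 4 lower (median log2 fold change -0.12). That share of calls is no larger than the 76.8% of all tested genes that were called. IL17RD, the membrane inhibitor also called SEF, measured 13.3 ± 0.42 FPKM in overexpression-labelled and 0.0526 ± 0.017 FPKM in control-labelled libraries, 254-fold higher (log2 fold change 3.77, SE 0.061, limma adjusted p = 3.34e-08), from 6833 reads in overexpression-labelled and 25 in control-labelled libraries. RASAL1, an inactivator of RAS, had 840 reads in overexpression-labelled and 6 in control-labelled libraries (limma adjusted p = 6.97e-07). NF1, the neurofibromin gene whose product SPRED proteins bring to the membrane, was 2.15-fold higher (7.48 ± 0.21 FPKM in overexpression-labelled and 3.47 ± 0.66 FPKM in control-labelled libraries, adjusted p = 2.57e-04), and RASA1 was 1.31-fold higher. CBL, a ubiquitin ligase for receptors, was 2.41-fold lower, RASAL2 3.50-fold, PAQR3 1.53-fold and ERRFI1, an inhibitor of the EGF receptor, 1.33-fold, the last lost without overexpression-labelled library 1 (adjusted p = 0.0647), overexpression-labelled library 2 (0.0788) or control library 1 (0.067).

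Of 17 tested genes of the cascade from adaptors to ERK, 5 were higher and 10 lower in the overexpression-labelled libraries (median log2 fold change -0.38), where 37.5% of all tested genes were called higher and 39.3% lower. HRAS was 1.44-fold higher (34.2 ± 1.00 FPKM in overexpression-labelled and 23.7 ± 1.45 FPKM in control-labelled libraries, limma adjusted p = 2.35e-04), while NRAS was 1.50-fold lower. BRAF was 2.69-fold and ARAF 1.33-fold lower. The MEK genes MAP2K1 and MAP2K2 were 1.44-fold and 1.71-fold lower, and MAPK3, which encodes an ERK, 1.34-fold lower. The scaffolds KSR1 (15.2-fold) and SHOC2 (4.36-fold) were the genes of this list with the largest decreases. Also higher were the RAS activators SOS1 (1.45-fold) and SOS2 (1.48-fold) and the adaptor GRB2 (1.20-fold), and the SOS2 call was lost without overexpression-labelled library 1 (adjusted p = 0.0525). SHC1 and PTPN11 did not pass.

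The output genes of the pathway, other than the 10, were mostly higher in overexpression-labelled libraries. Of 20 tested ERK target genes, 13 were higher and 1 was lower (median log2 fold change 1.55), beside 37.5% higher and 39.3% lower over all tested genes. This list, like the others here, was chosen with earlier results of these data known. CCND1, the cyclin D1 gene, measured 663.8 ± 7.43 FPKM in overexpression-labelled and 32.9 ± 2.27 FPKM in control-labelled libraries (20.2-fold, log2 fold change 4.30, adjusted p = 2.03e-08). PHLDA1 was 15.4-fold, IER3 7.28-fold and the immediate early factor EGR1 7.46-fold higher. EREG, a ligand of the EGF receptor, was 61.5-fold higher, from 993 reads in overexpression-labelled and only 15 in control-labelled libraries. EPHA4, an ephrin receptor, had 5084 reads in overexpression-labelled and 3 in control-labelled libraries, a 1593-fold ratio with an exact 95% counting interval of 545 to 7728. The ETS factors ETV4 and ETV5 were 4.92-fold and 6.12-fold higher. MYC was the lower gene (87.2 ± 1.11 FPKM in overexpression-labelled and 149 ± 35.1 FPKM in control-labelled libraries), and EPHA2, FOS, MAFF, UPP1, HBEGF and ETV1 did not pass.

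**Figure D4:**
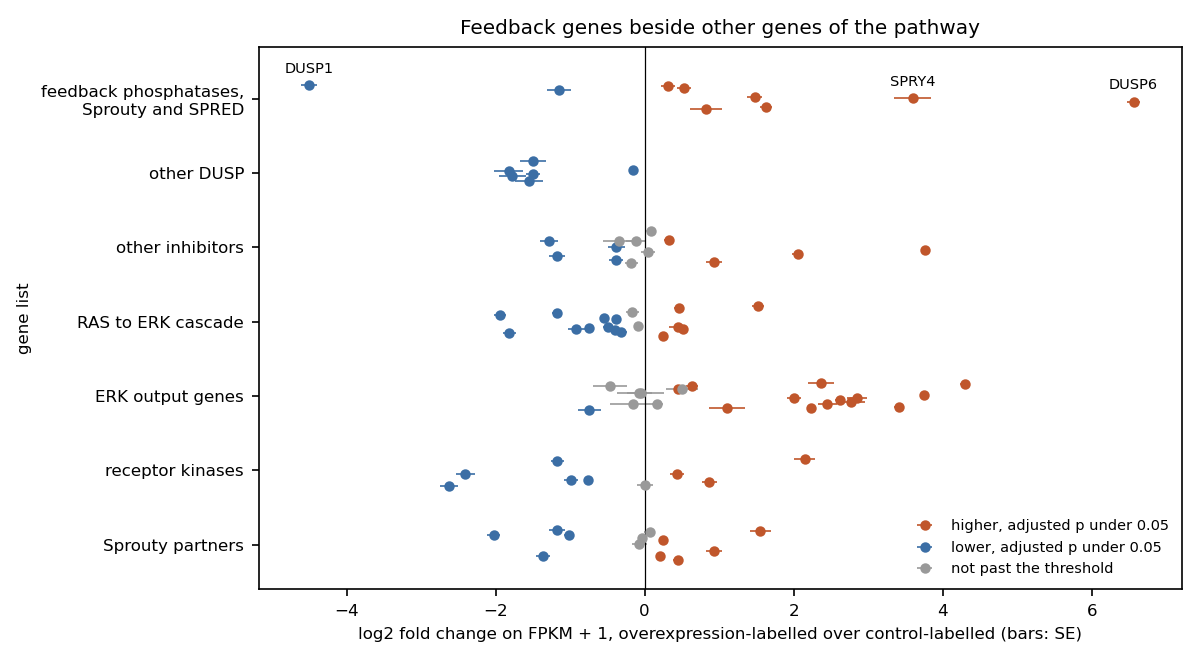
Log2 fold change on the FPKM + 1 scale (overexpression-labelled over control-labelled; bars are SE) for the tested genes of each list, points being genes. The 9 tested feedback genes span -4.50 (DUSP1) to 6.56 (DUSP6); the 6 other DUSP genes all lie under 0, and the 20 ERK output genes lie mostly above it.

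Of 9 tested receptor tyrosine kinase genes, 3 were higher and 5 lower (median log2 fold change -0.77), and the share higher is near the 37.5% of all tested genes (39.3% were lower). ERBB3 was 6.11-fold, ERBB2 1.98-fold and FGFR4 1.41-fold higher, whereas MET was 8.86-fold lower, FGFR3 7.25-fold, EGFR 2.32-fold, INSR 2.42-fold and IGF1R 1.79-fold. Of 12 tested genes for proteins that bind or modify Sprouty and SPRED, 5 were higher and 4 lower (median log2 fold change 0.02), a share of calls near the 76.8% over all tested genes. TESK1, a kinase bound by Sprouty, was 3.43-fold higher, while CAV1, the caveolin gene, was 5.78-fold lower and the ligases SIAH2 and SIAH1, which target Sprouty for degradation, 2.74-fold and 2.81-fold lower. NF1, PPP2R1A, PPP2CA and GRB2 were higher and CBL lower.

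The annotated 3' ends of the 10 genes differ in AU-rich pentamers, which are found in many unstable mRNAs. By the longest 3' UTR in GENCODE release 29, DUSP1 had 4 ATTTA in 672 bases, or 5.95 per kilobase, more than 95.4% of 11032 tested genes with a 3' UTR of at least 100 bases. DUSP6 had 1 in 2022 bases (0.495 per kilobase), DUSP5 0 in 1118 and DUSP4 6 in 3962 (1.51 per kilobase). SPRED1 had 24 in 5585 bases (4.30 per kilobase), SPRY1 3.31, SPRY2 2.56, SPRED3 2.32, SPRY4 2.12 and SPRED2 1.89 per kilobase. The median over tested genes was 1.64 per kilobase. SPRED1 and DUSP1 had the highest densities of the 10. A link between these pentamers and the differences between the groups was not tested.

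By level over the 6 libraries, the protein-coding genes most like DUSP6 were NGFR (a distance of 0.489 on the log2 scale), HOXB8 (0.684) and FGF19 (0.806). Those most like DUSP1 were TRIM16L (0.403), FBLN1 (0.954) and ALPP (1.05). TRIM16L averaged 3.37 FPKM in overexpression-labelled and 89.7 FPKM in control-labelled libraries. This likeness is a description of 6 libraries in 2 groups.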

How the data were processed

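RNA from 6 libraries labelled SW480 was sequenced after preparation with a SMARTer mRNA kit, per the labels' protocols. The authors deposited a table of FPKM per gene and library, its unit read from its name and values. No source used here names an aligner or counter. Per the submitters' processing notes the build was mm10, a mouse build, but all 58735 identifiers, starts and ends were those of human GENCODE release 29 (GRCh38). Beyond the 6 libraries there were 0 columns of per-sample values. FPKM times gene length, divided by its smallest value above 0 in a library, came out whole within 0.001 read for 100% of values. The median-ratio factor of the deposited values was 1.008 in each library, so they carry such a scaling already.

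Log2(FPKM + 1) values were tested two-sided with limma 3.58.1 (R 4.3.3, trended prior variance), with the group as sole covariate. Genes averaging 1 FPKM or more entered, with Benjamini-Hochberg adjustment over all of them and a threshold of 0.05. This scale understates the change of low genes; a fold given without log2 divides mean FPKM values. The steps were run on simulated reads that had the same dispersion in both groups and few changed genes. That run does not cover the unequal spread between the groups or the many called genes of these data. Genes and lists were chosen with earlier results of these data known. Named beside the 10 genes were at most 4 called genes in each list, those with the largest log2 changes, the RAS, RAF, MEK and ERK genes and NF1; some genes the rule names are not reported here. Others, such as MYC, ETV4, ETV5, DUSP7, DUSP8, RASA1, SOS1, ERBB2 and SIAH1, were picked with their values in view. The alternatives varied the pseudocount, filter, scaling, variance model, genes tested, test, pairing and libraries. The counting interval covers counting error only, as PCR copies are not separate molecules.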

Additional observations from a re-analysis of the deposited data

How the results depend on the processing

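The 10 genes, DDX39B and the called genes of the lists were refitted 1194 times over 18 alternatives. Of these refits, 1173 kept direction and side of the threshold, 19 lost the call (SPRY1, DUSP7, ERRFI1 and SOS2), 2 gained it (SPRED3) and 0 reversed. List genes that did not pass were not among these refits, so a gain by such a gene shows only in the list counts. Higher output genes, for example, numbered 15 with voom on reads, against 13. Calls for the 10 genes were 6 to 7 higher and 2 lower with a library left out, 5 higher with a mean of at least 5 FPKM, 6 after quantile normalization and 8 in TPM. With a mean of at least 5 FPKM, where fewer genes were tested, 6218 genes passed in all (of 7796), as did 3 other DUSP genes and 2 lower inhibitors. With array weights, whose estimate did not converge and gave control library 1 a weight of 39.2, 7 inhibitors and 2 output genes were lower; the cause was not tested. With no filter 6 receptors were higher, as more were tested. Leaving out a library gave 1 to 2 lower output genes. The log2 fold change of DUSP6 ranged from 6.47 to 8.49, the highest with voom on reads, which has no added pseudocount of 1 FPKM and moved the median of all genes by 0.10. Replicate numbers did not pair the libraries (correlations of same-numbered deviations -0.0059, -0.022 and 0.0075); with the replicate block 10506 genes passed, against 10726, DUSP7 lost its call and 14 output genes were higher, against 13. Depth limits SPRED3 (165 reads in overexpression-labelled and 52 in control-labelled libraries) and DUSP6 in control-labelled libraries (93 reads).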
